A study of Mus musculus with 12 samples.

Results

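Open chromatin around 35 mouse genes of the lysosome was followed in ATAC-seq peak lists of macrophages. The genes encode the cathepsins and other lysosomal hydrolases, their activators, proteins of the lysosomal membrane, subunits of the proton pump, and the transcription factors TFEB and TFE3. They were taken from a list of gene names, chosen with earlier results of these data known, and regions were assigned to them by position alone. Peaks of the 12 lists that overlapped or touched were merged, regions present in at least 2 lists were kept, and those within 10 kb of a member gene were assigned to it. This gave 226 member regions of 76042 in all. All 35 genes were found in the mm10 gene table, none of them on chromosome 12 and 3 of them on the X chromosome.

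The cells were RAW264.7, a mouse macrophage-like line, carrying a doxycycline-inducible gene for either GFP, the control, or Nur77 (Nr4a1), a nuclear receptor that acts as a transcription factor. Both lines received doxycycline at 1 µg/ml for 18 h, so the inducer was common to every group. Each line was then left untreated or given bacterial lipopolysaccharide (LPS) at 500 ng/ml for 1 h, which gave GFP untreated, GFP LPS, Nur77 untreated and Nur77 LPS, with 3 libraries each. The study asked how chromatin accessibility differs between the lines before and after LPS. The labels do not say whether each line is a clone or a pool, nor whether replicates are separate cultures, so that p-values reflect how far these libraries vary within a group, a spread that may be technical.

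Lysosomes are acidic organelles in which macrophages break down engulfed particles, worn-out organelles and lipids. A proton pump, the V-ATPase, keeps them acidic, membrane proteins such as LAMP1 line them, and soluble hydrolases do the digesting. Many lysosomal genes are switched on together by TFEB and TFE3, which bind an E-box with the core CACGTG near gene starts. LPS, sensed through TLR4, rapidly redirects macrophage transcription towards inflammatory genes.

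Depth is known only through the lists: the caller's background height, in reads, ran from 0.402 to 1.45 over the libraries, and the lowest summit in a list held 5 to 8 reads. By group, its range was 0.919 to 1.14 for GFP untreated, 0.411 to 1.45 for GFP with LPS, 0.402 to 1.25 for Nur77 untreated and 0.612 to 0.988 for Nur77 with LPS. All 6 Nur77 libraries, and 0 of 6 with GFP, called a region over the Nr4a1 gene. The starts of 5 of 8 macrophage markers (Cd68, Itgam, Lyz2, Fcgr3 and Mertk) were called in all 12 libraries, against none of those of T cells, B cells, fibroblasts, epithelium or neurons. All 8 macrophage markers had a region within 10 kb called in every library, as did 4 of 6, 3 of 5, 1 of 5, 1 of 4 and 1 of 4 markers of those other types.

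Promoter sequence is shown first, because 2 of the members, Tfeb and Tfe3, encode transcription factors that bind the core CACGTG. RefSeq promoter windows (GRCm38.p6, the mm10 build) matched 29 of the 35 members, with 34 windows. Ctsb, Ctsh, Atp6v0d2, Atp6v1b2, Atp6v1h and Asah1 had no entry. In the 250 bases before the gene start, the palindrome CACGTG was found in 8 of the 34 windows (23.53%), against 6.02% of 32851 windows of all genes and 6.63% of those of protein-coding genes. The 8 windows belonged to Atp6v1a, Ctsa, Ctsd, Ctsl, Gaa, Lamp1, Mcoln1 and Naglu. Lamp1 held 4 copies and Ctsd and Mcoln1 held 2 each, whereas 0.43% of all windows held 2 or more. The longer palindrome TCACGTGA, which contains CACGTG, was present in Atp6v1a, Ctsa, Ctsd and Mcoln1 (11.76% of member windows, 0.79% of all). For comparison, the AP-1 site TGACTCA, searched on both strands, was in Neu1 and Psap (5.88% against 4.46%). The Nur77 response element AAAGGTCA, also searched on both strands, was in none of the 34 windows and in 1.34% of all. Median GC content was 54.6% in member windows, 52.4% in all windows and 55.6% in protein-coding ones. These are matches of letters, not measured binding.

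The windows below run from 5′ to 3′ on the gene's strand and end at the base before the RefSeq start, with each CACGTG in capitals. Ctsa, Atp6v1a, Ctsd and Naglu are shown because their start regions ranked highest among the members with a match, and Gaa because its start region changed rank after LPS. The Ctsa start region also holds the start of its neighbour Neurl2. The Ctsa window shown precedes a second RefSeq start and lies inside the gene span. The window before its first start held no CACGTG. That of Atp6v1a also lies inside its gene span. Lamp1 was added after the matches were seen, for its 4 copies.
Lamp1, chr8:13158911-13159160, plus strand: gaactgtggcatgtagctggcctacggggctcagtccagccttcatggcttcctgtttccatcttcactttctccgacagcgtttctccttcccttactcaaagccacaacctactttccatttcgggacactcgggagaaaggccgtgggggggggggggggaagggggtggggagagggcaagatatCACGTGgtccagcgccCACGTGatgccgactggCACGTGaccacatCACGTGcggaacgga
Ctsd, chr7:142387828-142388077, minus strand: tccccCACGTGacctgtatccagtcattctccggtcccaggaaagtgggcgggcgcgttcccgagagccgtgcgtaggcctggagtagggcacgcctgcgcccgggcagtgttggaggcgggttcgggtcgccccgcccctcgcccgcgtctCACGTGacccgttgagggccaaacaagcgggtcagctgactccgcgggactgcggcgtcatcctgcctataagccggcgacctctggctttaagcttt
Ctsa, chr2:164833523-164833772, plus strand: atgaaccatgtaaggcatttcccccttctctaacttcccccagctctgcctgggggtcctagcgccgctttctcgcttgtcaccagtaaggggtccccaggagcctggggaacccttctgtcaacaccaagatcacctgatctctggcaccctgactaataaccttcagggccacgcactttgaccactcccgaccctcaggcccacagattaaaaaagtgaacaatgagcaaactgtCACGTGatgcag
Atp6v1a, chr16:44139260-44139509, minus strand: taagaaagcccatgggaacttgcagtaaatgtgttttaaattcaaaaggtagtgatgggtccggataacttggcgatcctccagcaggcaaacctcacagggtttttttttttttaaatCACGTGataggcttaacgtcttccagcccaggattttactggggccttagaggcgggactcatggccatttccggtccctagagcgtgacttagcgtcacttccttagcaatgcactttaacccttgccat
Naglu, chr11:101069844-101070093, plus strand: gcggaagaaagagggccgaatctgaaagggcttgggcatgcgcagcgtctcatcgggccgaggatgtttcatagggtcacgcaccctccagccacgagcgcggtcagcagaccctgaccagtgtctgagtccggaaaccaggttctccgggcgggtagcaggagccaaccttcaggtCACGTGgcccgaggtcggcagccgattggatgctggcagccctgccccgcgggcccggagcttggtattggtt
Gaa, chr11:119267713-119267962, plus strand: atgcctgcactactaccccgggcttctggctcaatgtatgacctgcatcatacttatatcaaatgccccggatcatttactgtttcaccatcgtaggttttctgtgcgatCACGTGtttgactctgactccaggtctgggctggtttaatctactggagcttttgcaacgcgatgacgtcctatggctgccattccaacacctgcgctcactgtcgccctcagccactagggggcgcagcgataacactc

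**Figure D1:**
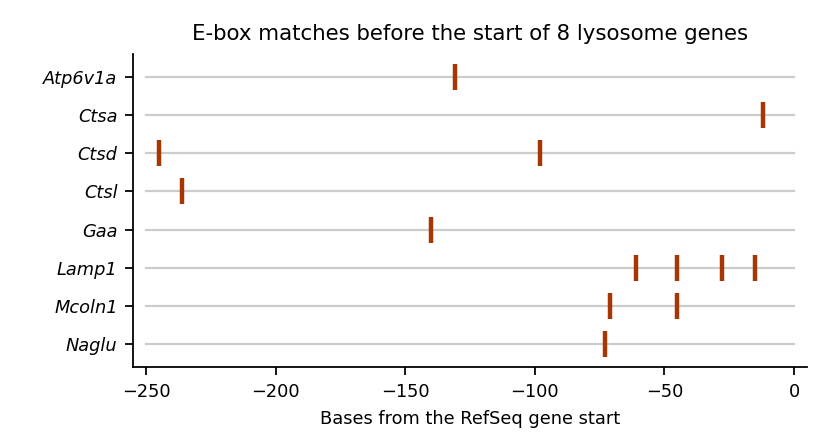
Position of each CACGTG match (red tick) in the 250 bases before a RefSeq start of 8 lysosome genes. The x axis gives bases from the start, and a grey line marks the window searched. In Lamp1, 4 matches lie between 61 and 15 bases before the start.

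Every one of the 8 windows with a match lay in a region called in all 12 libraries. More generally, 29 of the 35 genes had a region at their own start called in every library, and the other 6 were those with no promoter entry, for which no start could be placed. Of the 226 member regions, 100 (44.2%) were called in all 12 libraries, against 34.7% of all regions and 38.0% of those within 10 kb of a protein-coding gene. The strongest region of each gene was called in all 12 libraries for 34 members. The exception was Ctsh, which encodes the aminopeptidase cathepsin H and had no region called in every library.

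Strength was read as the percentile of a region within its list by −log10 q, averaged over the libraries that called it. Among the proteases, the strongest regions of Ctsa (96.9 ± 1.1, SD, n = 12), Ctsd (95.2 ± 0.9), Ctsb (94.9 ± 2.0) and Ctsl (93.8 ± 2.7) stood near the top of the lists, while the strongest of Ctsh stood at the percentile 60.1 in the 2 libraries that called it. Ctsa encodes the protective protein cathepsin A, Ctsd an aspartic protease and Ctsb and Ctsl cysteine proteases. Ctss, Ctsc, Tpp1 and Ctsz had theirs between 87.6 and 91.7. Of the other hydrolases and activators, Grn (97.5 ± 0.9), the gene of progranulin, and Gusb (97.1 ± 0.5), that of beta-glucuronidase, were highest. Asah1, Neu1, Hexa, Naglu and Lipa followed between 92.6 and 96.7, and Man2b1, Ppt1, Psap, Gaa and Smpd1 ranged from 88.2 down to 77.6.

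In the membrane group, the strongest region near Scarb2 (97.8 ± 0.7), which encodes the receptor LIMP-2, and that near the tetraspanin gene Cd63 (96.7 ± 1.1) were highest. Mcoln1, Laptm5 and Lamp1 lay at 88.3 to 88.9 and Lamp2 at 71.1. The V-ATPase genes Atp6v1a (94.8 ± 1.1) and Atp6v0d1 (94.4 ± 2.1) had stronger leads than Atp6ap1 (89.9), Atp6v0d2 (89.1), Atp6v1b2 (81.5) and Atp6v1h (72.5). Both transcription factor genes ranked high, Tfeb at 95.6 ± 1.2 and Tfe3 at 93.7 ± 2.5. The strongest region was the gene's own start for 16 of the 35 members, and for 13 others with a placed start, Ctsa, Ctsd and Tfeb among them, a region elsewhere within 10 kb ranked higher. For the 6 without a placed start this was not determined. Some strongest regions lay over the start of a neighbour. Those of Scarb2 and Mcoln1 overlapped the starts of Nup54 and Pnpla6, while the genes' own starts stood at 90.3 and 77.9. Those of Tpp1, Man2b1 and Ctss overlapped the starts of Rrp8 and Ilk, Dhps and Gm40096. Own starts there stood at 76.9, 85.0 and 85.0.

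After LPS, the most visible difference around these genes was a smaller share of the peak-covered bases of a list. The bases under peaks within 10 kb of each gene were added up in each list and divided by all covered bases of that list to give a covered share in bp per Mb, a measure chosen after the data had been seen. It was followed in the 34 members with a region called in all libraries. In the GFP line, 15 of the 34 members (44.1%) had a lower covered share in all 3 LPS libraries than in any untreated library, against 17.0% of 14134 protein-coding genes, and 0 members a higher one, against 8.02%. The Nur77 line gave 15 members lower, against 18.0% of genes, and 0 higher, against 7.14%. The 2 LPS comparisons share no library, and 12 of the 34 members (35.3%) were lower in both, against 7.44% of all genes. These 12, which make up 80.0% of the list of either line, were Ctsa, Ctsd, Hexa, Gaa, Neu1, Psap, Lipa, Ppt1, Grn, Lamp1, Laptm5 and Atp6v0d1. Ctss, Atp6v1a and Atp6ap1 were lower only in the GFP list, and Gusb, Smpd1 and Tfeb only in the Nur77 list; the difference between the lines was not tested. Widely covered genes separate more readily: of genes with a mean of at least 5000 covered bases, 24.1% were lower in the GFP line and 25.0% in the Nur77 line, compared with 13 of the 21 such members in each. With 3 libraries against 3 an exact permutation test cannot go below p = 0.1, so these counts are descriptions. Counted in bases, not divided by the total of the list (33.9 to 73.4 Mb), 6 and 8 members were lower, against 5.79% and 3.23% of all genes, and within the gene span alone 8 were lower in the Nur77 line, against 12.6%. GFP LPS replicate 3, with the largest total (73.4 Mb), covered more bases than every untreated GFP library at Ppt1, Neu1, Atp6v0d1, Ctss and Atp6v1a. These genes were lower there only as a share. The count above was 1 in place of 0 without GFP LPS replicate 3 or GFP untreated replicate 3 in the GFP line, and without Nur77 LPS replicate 3 or any one of the Nur77 untreated replicates in the Nur77 line, while 9.32% to 17.0% of all genes were above under these omissions.

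**Figure D2:**
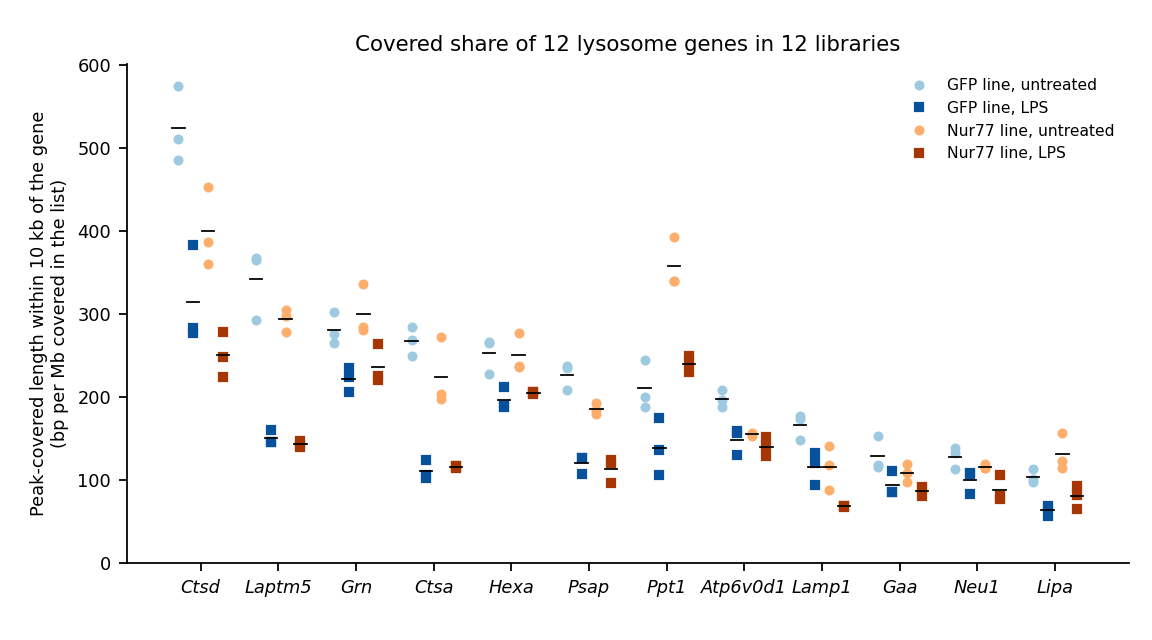
Peak-covered length within 10 kb of 12 lysosome genes, in bp per Mb covered in the whole list (y axis, starting at 0), with 1 point per library and a black bar at the mean of 3. In each gene the LPS points (squares) lie below the untreated points (circles) of the same line, and Ppt1 is higher in the Nur77 line in both states.

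Laptm5 encodes a lysosomal membrane protein of blood cells. In the GFP line its covered share was 367, 365 and 293 bp per Mb untreated and 146, 147 and 161 with LPS. In the Nur77 line it was 298, 278 and 304 untreated and 148, 140 and 142 with LPS. The LPS libraries of both lines thus lay within a narrow range, from 140 to 161, 55.8% below the untreated mean in the GFP line and 51.2% below it in the Nur77 line. Ctsa gave 285, 269 and 249 against 102, 106 and 125 bp per Mb in the GFP line and 204, 272 and 197 against 114, 117 and 117 in the Nur77 line. All LPS libraries of either line were below all untreated ones. For Psap, which encodes the precursor of the sphingolipid activators, the values were 238, 235 and 209 against 127, 107 and 127 in the GFP line, and 193, 184 and 179 against 96.2, 124 and 121 in the Nur77 line. The groups were apart in both lines, and the mean was 47.1% and 38.7% lower with LPS.

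Values for most of the other members of the 12 follow, and those of Ctsd and Ppt1 are given with their regions. Lipa gave 113, 97.4 and 102 bp per Mb against 57.0, 66.5 and 69.3 with LPS in the GFP line, and 114, 156 and 123 against 82.7, 65.8 and 93.1 in the Nur77 line. Lamp1, which lines the lysosome, gave 148, 177 and 174 against 93.9, 133 and 120, and 141, 118 and 88.5 against 69.4, 67.7 and 69.1. In both genes every LPS library lay below the untreated libraries of its line. Grn, whose product is cut into granulins inside lysosomes, was 21.1% and 21.2% lower in the mean. Hexa, a subunit gene of beta-hexosaminidase, was 22.2% and 18.0% lower, the sialidase gene Neu1 22.3% and 24.0%, Gaa 27.1% and 19.6%, and the V-ATPase gene Atp6v0d1 24.8% and 9.6%.

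The differences were fewer at gene starts than elsewhere. In 29 members with a start region, the covered share of that region was lower in all LPS libraries for 2 in the GFP line and 4 in the Nur77 line, against 7.21% and 8.71% of 7820 genes. The share of their other regions was lower for 14 and 13 of the 29 (48.3% and 44.8%), against 20.4% and 17.8%. The median ratio of LPS to untreated was 0.94 and 0.93 at member starts, against 0.99 and 0.93 for all genes, and 0.79 in both lines for their other regions, against 0.91 in both.

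Ctsd had mean covered shares of 524 ± 46.2 untreated and 315 ± 59.4 with LPS (SD, n = 3, bp per Mb) in the GFP line, and of 400 ± 47.4 and 250.2 ± 27.3 in the Nur77 line. A region of 14597 bp at chr7:142366068-142380664 took in the 3′ part of Ctsd and the sequence behind it, including the start of the neighbour Ifitm10. Peaks covered 13965, 13319 and 12409 bp of it in GFP untreated and 7968, 6912 and 8199 bp in Nur77 untreated. With LPS they covered 3273, 2871 and 6396 bp in the GFP line and 3590, 2634 and 989 bp in the Nur77 line. The untreated and LPS libraries of a line did not overlap. The region over the Ctsd start, chr7:142383834-142395211, was covered over 10542, 10689 and 11378 bp in GFP untreated and 8206, 8122 and 10421 bp in GFP LPS, which were lower by less. In the Nur77 line, with 8161, 5805 and 9315 bp untreated and 7229, 6802 and 6175 bp with LPS, the groups overlapped. These lengths of single regions were not divided by the total of each list (33.9 to 73.4 Mb). Whether groups overlap at the start region can therefore differ for the covered share, in either line.

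Similar stretches, again in undivided bases, lay at Ctsa and Laptm5. Over the 3′ part of Ctsa and the bases behind it, chr2:164837811-164847653 was covered over 8537, 8202 and 8266 bp untreated and 0, 607 and 3726 bp with LPS in the GFP line. The Nur77 line gave 5119, 5406 and 5444 bp untreated and 1610, 952 and 619 bp with LPS. LPS libraries were again below all untreated libraries of their line. Within Laptm5, chr4:130925194-130932487 was covered over 4520, 4911 and 3140 bp in GFP untreated and over 0, 0 and 280 bp in GFP LPS. It was covered over 2528, 0 and 2291 bp in Nur77 untreated and in no Nur77 LPS library, so that 1 untreated library, replicate 2, the one with the lowest background height, held no call there either.

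Some members showed little of this. Ctsb gave 411 ± 40.1 bp per Mb untreated and 364 ± 53.7 with LPS (SD, n = 3) in the GFP line, and 402 ± 79.3 and 393 ± 55.6 in the Nur77 line. Lamp2 gave 44.2 ± 13.4 and 53.7 ± 4.8, and 40.5 ± 8.6 and 54.6 ± 13.1. Neither gene separated the libraries by treatment.

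Ranks gave a second readout, in which every library had the same number of ranked regions. Which regions were ranked still depended on the lists, the shortest with 36184 peaks. The 26378 regions called in all 12 libraries, 100 of them near members, were ranked in each library by −log10 q, and the ranks were turned into normal scores, here called rank scores, and fitted with limma. In the GFP line 12 member regions were lower after LPS and 2 higher at an adjusted p under 0.05, against 6.99% and 9.57% of all regions. The Nur77 line had 11 lower and 1 higher, against 4.92% and 7.58%. Over all regions more were higher than lower in both lines. The median LPS change of the 100 member regions was −0.12 in rank score in either line, against −0.05 and −0.03 for all regions. It was below 0 for 72 and 70 of the 100 member regions, against 57.1% and 54.6% of all. In terms of percentile among the shared regions, the median member region stood at 65.0 ± 0.9 (SD, n = 3) untreated and 57.7 ± 1.0 with LPS in the GFP line, and at 63.6 ± 1.2 and 58.5 ± 1.3 in the Nur77 line. The LPS libraries of the 2 lines stood close together and apart from all untreated ones.

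**Figure D3:**
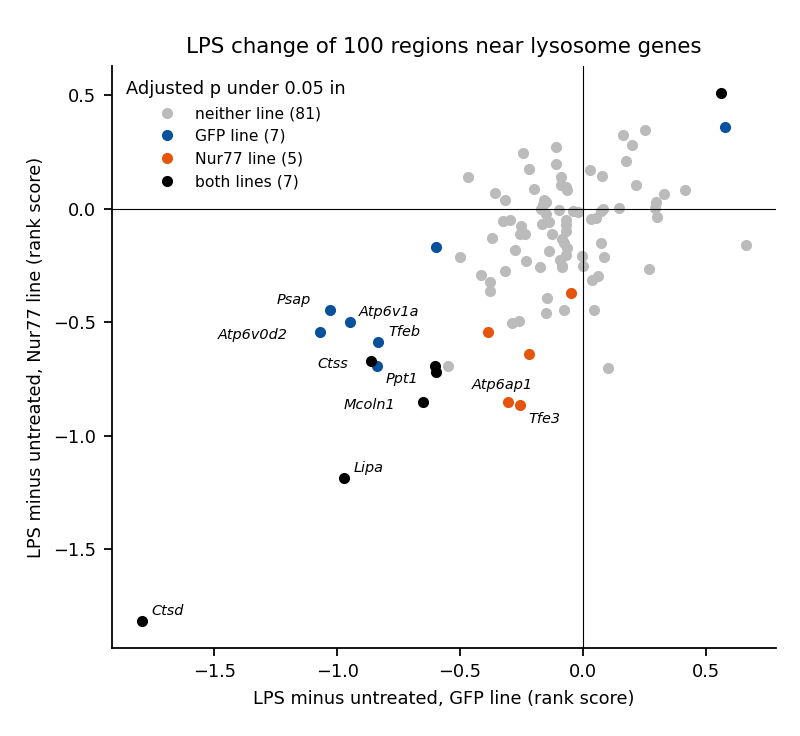
LPS minus untreated in rank score for the 100 regions near lysosome genes called in all 12 libraries, in the GFP line (x axis) and the Nur77 line (y axis). Colour gives the lines in which the limma adjusted p was under 0.05; Ctsd is farthest down in both, and 7 regions passed in both lines.

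6 regions fell in both lines and 17 in at least 1. The share of all regions that fell in both is not given here, so these counts are descriptions. The 6 lay near Ctsd, Lipa, Ctss, Mcoln1, Tfeb and Laptm5. The wide Ctsd region, whose strongest peak shifted by up to 4436 bp between libraries, stood at the percentiles 73.7, 62.6 and 46.5 untreated and 14.2, 3.4 and 5.4 with LPS in the GFP line. In the Nur77 line it stood at 25.0, 65.4 and 28.6 untreated and 1.1, 11.6 and 0.2 with LPS, so that neither line had an overlap. Its rank score fell by 1.79 (SE 0.39, adjusted p = 0.0073) in the GFP line and by 1.82 (adjusted p = 0.0089) in the Nur77 line. Its summits held 86, 77 and 62 reads in GFP untreated and 11, 11 and 28 in GFP LPS.

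Lipa encodes lysosomal acid lipase, which frees cholesterol and fatty acids. A region inside it, chr19:34520722-34522410, stood at 29.5, 30.3 and 27.2 in GFP untreated and 5.1, 12.9 and 3.5 in GFP LPS, and at 32.6, 36.5 and 24.5 against 1.1, 5.2 and 12.4 in the Nur77 line. No LPS library reached an untreated one, and the rank score fell by 0.97 (SE 0.24, adjusted p = 0.0163) and 1.19 (adjusted p = 0.0071). Leaving out 1 library took the GFP result up to an adjusted p of 0.0646, with 3 of the 12 omissions above 0.05.

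The start of Laptm5, chr4:130912303-130916123, was 1 of the 2 own start regions that fell, of 30 in 29 genes. In the GFP line 2 fell and in the Nur77 line 1, against 6% and 3.14% of regions at any gene start. In the fits between the lines 0 of these 30 passed. Of regions at any gene start, 1.48% were higher and 2.19% lower in untreated Nur77 cells, and 2.14% and 2.58% after LPS. The counts at member starts are near these shares and are descriptions. The Laptm5 start stood at 87.6, 83.7 and 83.6 in GFP untreated and 67.1, 68.1 and 66.0 in GFP LPS, and at 83.9, 89.3 and 87.7 against 62.4, 66.6 and 68.7 in the Nur77 line. The untreated libraries of both lines lay together well above the LPS ones. The rank score fell by 0.60 (SE 0.11, adjusted p = 0.0032) and 0.72 (adjusted p = 0.0013), and no omission of a library took either above 0.05.

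The other start was that of Gaa, the gene of acid alpha-glucosidase, whose E-box is shown above. Its region chr11:119266323-119269635 went from 60.1, 68.0 and 68.3 in GFP untreated to 37.4, 37.6 and 52.0 in GFP LPS, a fall of 0.60 (SE 0.15, adjusted p = 0.0144). The groups did not overlap there, whereas Nur77 untreated (72.0, 55.4 and 66.5) and Nur77 LPS (54.7, 61.0 and 59.6) did, with a change of −0.17 (adjusted p = 0.536). In 4 of the 12 omissions of a library the GFP result passed 0.05, up to 0.0546. The lines did not differ in their response by the test of the difference (0.43, SE 0.21, adjusted p = 0.689).

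Tfeb, whose product activates many lysosomal genes, had 2 regions inside the gene that fell in the GFP line and 2 in the Nur77 line. The one common to both, chr17:47759044-47760816, stood at 85.4, 78.2 and 76.5 against 68.4, 51.9 and 58.8 with LPS in the GFP line, and at 79.7, 86.5 and 80.1 against 55.3, 65.0 and 57.1 in the Nur77 line. All LPS libraries were lower, and the rank score fell by 0.60 (adjusted p = 0.014, above 0.05 in 2 of 12 omissions) and 0.69 (adjusted p = 0.0085). A second, chr17:47753407-47755222, fell by 0.84 in the GFP line (adjusted p = 0.01), and another, chr17:47766266-47769898, by 0.37 in the Nur77 line (adjusted p = 0.0412, above 0.05 in 10 of 12 omissions). Its own start did not pass in either line (0.04 and −0.32, adjusted p = 0.909 and 0.257).

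Ctss encodes the cathepsin that trims the invariant chain in antigen presentation. Its intragenic region chr3:95529509-95530387 stood at 48.0, 42.4 and 56.9 against 20.6, 14.7 and 21.6 in the GFP line and fell by 0.86 (adjusted p = 0.0045), and by 0.67 in the Nur77 line (adjusted p = 0.0219, above 0.05 in 3 of 12 omissions). The region filed under Mcoln1, the gene of the calcium channel TRPML1, was chr8:3492848-3493987, 6.5 kb upstream and over the start of Zfp358. It fell by 0.65 (adjusted p = 0.0121, and 0.054 without GFP untreated replicate 3) and 0.85 (adjusted p = 0.0034). Untreated libraries lay between the percentiles 3.0 and 13.3 and LPS libraries between 0.7 and 2.5.

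Besides Gaa and the second Tfeb region, Psap, Atp6v0d2, Atp6v1a (−0.95, adjusted p = 0.0342) and Ppt1 (−0.84, adjusted p = 0.028) each had a region that passed in the GFP line alone. That of Psap, chr10:60303271-60308797, lay 0.7 kb behind the gene. It stood at 71.9, 71.5 and 69.1 in GFP untreated and 23.6, 29.3 and 42.8 in GFP LPS, a fall of 1.03 (SE 0.14, adjusted p = 0.00048). The Nur77 line went from 55.4, 63.1 and 59.6 to 42.9, 47.0 and 35.2, which also did not overlap, with a change of −0.45 (adjusted p = 0.0594). Passing in 1 line was no difference between lines: of the 26378 regions tested with limma for a different LPS response, 0 passed, members included. The smallest adjusted p was 0.181, and 5 of 100 member regions had an unadjusted p under 0.05, against 7.37% of all. The regions that passed in the Nur77 line alone lay near Tfe3 (−0.87), Atp6ap1 (−0.85), Scarb2 (−0.64) and Gusb (−0.54), besides that of Tfeb. Those of Atp6v1a, Ppt1, Scarb2 and Gusb were above 0.05 in 5 of 12 omissions each.

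Rises were few, 2 regions in the GFP line and 1 of the same 2 in the Nur77 line. A region 9.8 kb behind Gusb, chr5:129977969-129979191, went from 36.5, 27.9 and 36.8 to 54.7, 55.9 and 56.0 in the GFP line and from 30.2, 22.8 and 19.3 to 34.1, 48.0 and 44.4 in the Nur77 line. The LPS libraries of each line lay above its untreated ones, and the rank score rose by 0.56 (adjusted p = 0.0124, and 0.058 without GFP untreated replicate 2) and 0.51 (adjusted p = 0.0255). A region 9.6 kb outside Ctsb rose in the GFP line by 0.58 (adjusted p = 0.0215), above 0.05 in 4 of 12 omissions, as was the rise near Gusb in the Nur77 line. Leaving out Nur77 untreated replicate 2 or Nur77 LPS replicate 2 brought the falls of the Nur77 line from 11 to 7. The rises of the GFP line went from 2 to 0 without GFP untreated replicate 2 and to 1 without GFP untreated replicate 3 or GFP LPS replicate 3, and that of the Nur77 line to 0 without Nur77 untreated replicate 3 or Nur77 LPS replicate 2 or 3.

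**Figure D4:**
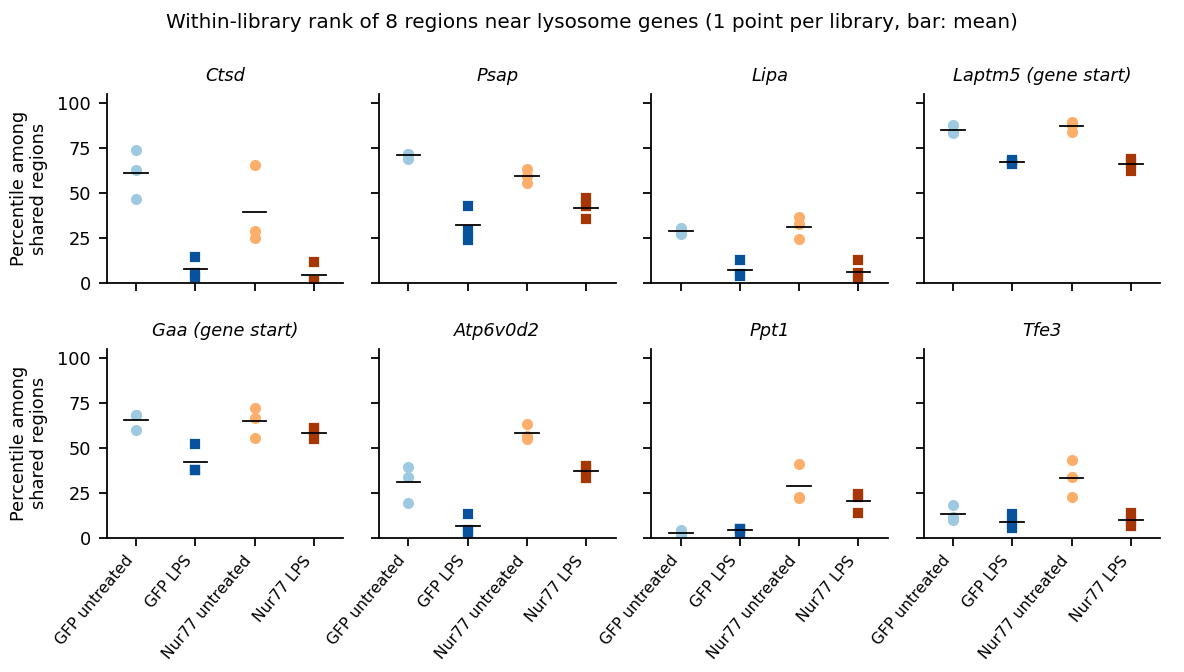
Percentile of 8 regions among the 26378 shared regions (y axis, 0 to 100), with 1 point per library and a bar at the mean, by group (x axis). LPS libraries (squares) lie low for Ctsd, Psap, Lipa and the Laptm5 start, and Nur77 libraries (orange and brown) lie high for Atp6v0d2 and Ppt1.

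By role, the falls were spread over the whole set. Of the 17 membrane-protein regions, 2 fell in the GFP line and 3 in the Nur77 line. The 38 regions of other hydrolases and activators had 4 and 2 falls, the 20 of proteases 2 and 2, the 15 of the V-ATPase 2 and 1, and the 10 of the transcription factors 2 and 3. Medians were between −0.22 for membrane proteins and −0.09 for other hydrolases in the GFP line, and between −0.27 for transcription factors and −0.04 for the V-ATPase in the Nur77 line.

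Between the lines, most of the differences that passed lay near 2 genes, Ppt1 and Atp6v0d2, and were higher in Nur77. In untreated cells 4 member regions were higher in Nur77 and 0 lower at an adjusted p under 0.05, against 2.49% and 4.19% of all regions. After LPS 5 were higher and 0 lower, against 2.49% and 4.73%. With limma, 12 and 15 of the 100 member regions had an unadjusted p under 0.05, against 20.5% and 22.3% of all. 3 regions were higher in both states and 6 in at least 1, given without the share over all regions. These regions were also picked for passing, so non-overlap of the libraries compared adds no separate evidence. All Nur77 libraries lay above all GFP ones for 15 member regions untreated and 14 after LPS, against 13% and 13.7% of all shared regions. They lay below for 5 and 7, against 12.7% and 14.1%. The median difference was 0.04 and 0.01, against 0.02 and 0.03 for all regions. All regions here include the 1054 of chromosome 12, where no member lies. Their median differences were −0.43 untreated and −0.47 after LPS, so the shares lower over all regions are not those of the members' chromosomes alone.

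Ppt1 encodes palmitoyl-protein thioesterase, which removes fatty acids from proteins in the lysosome. A region 8.3 kb behind it, chr4:122867479-122869052, stood at 4.0, 1.5 and 1.6 in untreated GFP cells and 22.0, 41.0 and 22.4 in untreated Nur77 cells. After LPS it stood at 2.8, 4.6 and 4.7 with GFP and 22.8, 13.4 and 24.2 with Nur77. Every Nur77 library was above every GFP library. The difference was 1.44 (SE 0.18, adjusted p = 0.00081) untreated and 0.90 (adjusted p = 0.011) after LPS. A region of 11218 bp inside and behind the gene, chr4:122850429-122861646, was also higher, by 0.59 (adjusted p = 0.037, above 0.05 in 5 of 12 omissions) and 0.71 (adjusted p = 0.0152, above 0.05 in 3), while its strongest peak shifted by up to 6879 bp between libraries. A further region inside the gene was higher after LPS (0.55, adjusted p = 0.0376, above 0.05 in 8 of 12 omissions). The covered share of Ppt1 was 245, 188 and 200 bp per Mb in GFP untreated and 340, 393 and 340 in Nur77 untreated, and 106, 136 and 175 against 250, 242 and 230 after LPS. The Nur77 libraries lay above the GFP ones in both states, 1.70-fold and 1.73-fold in the mean. The Ppt1 start region did not pass (−0.03 and 0.16), and the 27 shared regions within 1 Mb that belong to no member had median differences of 0.01 and 0.08.

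Atp6v0d2 encodes a V-ATPase subunit typical of osteoclasts and macrophages. Its region chr4:19868987-19870208, 6.6 kb outside the gene, stood at 39.0, 33.9 and 19.1 in untreated GFP cells and 56.8, 63.1 and 54.9 in untreated Nur77 cells. After LPS it stood at 2.8, 12.9 and 4.1 with GFP and 33.2, 39.7 and 38.0 with Nur77. The lines did not overlap in either state, and LPS libraries lay below untreated ones in each. It was higher in Nur77 by 0.73 (SE 0.20, adjusted p = 0.0434) untreated, above 0.05 in 9 of 12 omissions, and by 1.26 (adjusted p = 0.0035) after LPS, which stayed under it in all 12. With LPS it fell by 1.07 (adjusted p = 0.0029) in the GFP line.

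A region behind Tfe3, chrX:7775929-7777179, stood at 18.4, 9.7 and 11.2 in GFP untreated and 33.8, 43.1 and 22.4 in Nur77 untreated, a difference of 0.69 (adjusted p = 0.0445, above 0.05 in 7 of 12 omissions). After LPS the lines overlapped there. A region 3.0 kb upstream of Lamp1, chr8:13154944-13156150, was higher in Nur77 only after LPS (0.65, adjusted p = 0.0362, above 0.05 in 5 of 12 omissions). Untreated, only 1 region was higher in Nur77 without GFP untreated replicate 2 or 3, Nur77 untreated replicate 1 or 2, or Nur77 LPS replicate 1. Without Nur77 LPS replicate 3 there were 2. In the same order, 1.41%, 1.44%, 1.54%, 1.69%, 2.11% and 2.27% of all regions were higher. After LPS, 2 regions were higher without GFP LPS replicate 1 or Nur77 LPS replicate 2, against 1.63% and 1.23% of all regions. There were 3 without GFP LPS replicate 2 or 3 or Nur77 LPS replicate 1 or 3. The shares over all regions were 1.59%, 1.86%, 1.06% and 1.24%. Without GFP LPS replicate 1, 1 was lower, against 3.03%. Covered shares were not one-sided: untreated, 7 members lay above and 6 below in Nur77, against 19.9% and 7.95% of genes, and after LPS 4 above and 3 below, against 14.1% and 7.10%. Ctss and Lamp1 were below in both states and Ppt1 and Tfeb above in both. Without Nur77 LPS replicate 1 or GFP LPS replicate 1 the count above after LPS was 10 and 8, against 23.5% and 27.4% of all genes, and that below was 5 without either of these (10.5% and 10.6%) or without Nur77 LPS replicate 2 (9.30%).

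Presence or absence of a call in whole groups gave the last comparison. Of the 226 member regions, 178, 194 and 181 were called in untreated and 123, 155 and 194 in LPS libraries of the GFP line, and 167, 128 and 171 against 156, 135 and 137 in the Nur77 line. The groups overlapped, and in GFP LPS the lowest count came with the lowest background height and the highest with the highest. After LPS, 6 member regions were called in 3 of 3 untreated and 0 of 3 LPS libraries of the GFP line, against 1.02% of all regions, and 0 the other way, against 1.96%. The Nur77 line lost 6 as well, against 0.460%, and gained 1, against 1.94%.

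**Figure D5:**
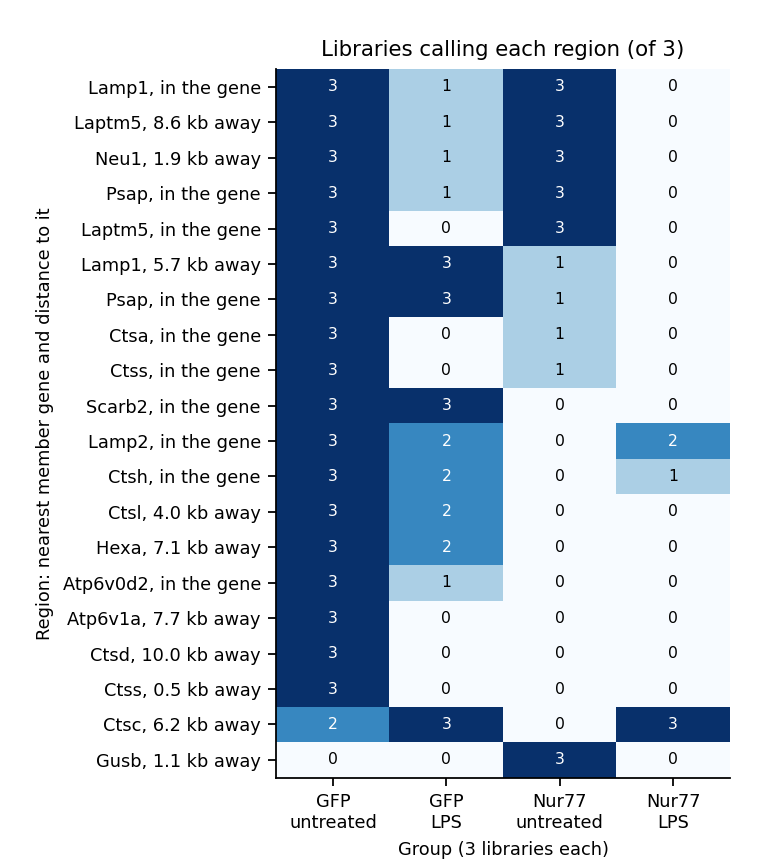
Number of libraries, of 3 per group (x axis), that called each of the 20 member regions present in all libraries of 1 group and none of a compared group. Rows name the gene and the distance to it; 18 rows are full in GFP untreated and 17 are empty in Nur77 LPS.

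A region inside Laptm5, chr4:130934940-130938821, was lost in both lines. Its summits held 23, 14 and 19 reads in GFP untreated and 13, 8 and 21 in Nur77 untreated, and no LPS library called it. The other losses of the GFP line lay in or near Ctsa, Ctss (2 regions), Ctsd and Atp6v1a, and those of the Nur77 line in or near Laptm5, Lamp1, Psap, Neu1 and Gusb. Their summits held 5 to 19 reads in the libraries that called them, beside a lowest summit of 5 to 8 reads in the lists. The gain lay 6.2 kb upstream of Ctsc, chr7:88271216-88271855, called with 45, 29 and 27 reads in Nur77 LPS and in no Nur77 untreated library. It was called in 2 GFP untreated and 3 GFP LPS libraries.

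Between the lines, 9 member regions were called in all GFP untreated libraries and in no Nur77 untreated one, against 3.40% of all regions, and 1 the other way, against 0.308%. After LPS 3 were lost in Nur77, against 2.18%, and 0 gained, against 0.304%. These shares over all regions include chromosome 12, where no member lies. A region inside Scarb2, chr5:92486621-92487278, was called in 6 of 6 GFP libraries, with 27, 19 and 28 reads untreated and 7, 14 and 36 after LPS, and in 0 of 6 Nur77 libraries. The 1 gained region lay 1.1 kb behind Gusb with 7, 5 and 11 reads. The other losses in untreated cells lay in or near Ctsl, Ctsh, Hexa, Lamp2, Atp6v0d2, Ctss, Ctsd and Atp6v1a, the last 3 of them among the regions lost with LPS in the GFP line. Those after LPS lay near Lamp1 and inside Psap.

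Over all 12 libraries, Fisher's exact test on the 20292 regions called in 4 to 8 of them passed 0 regions for LPS or for the line after Benjamini-Hochberg adjustment. Of 50 member regions tested, 5 were called less often with LPS and 5 less often in Nur77 at an unadjusted p under 0.05, and 0 more often, while 7.04% and 7.97% of all regions tested had such a p. By this exact test the Laptm5 and Scarb2 regions above reached p = 0.0022, the smallest these numbers allow, and adjusted p = 0.0935 and 0.0923.

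Group calls moved with list length and with single libraries, and the calls over all regions moved too. In lists cut to the length of the shortest, 36184 peaks, 5 member regions were lost with LPS in each line, against 1.22% of all regions in the GFP line and 0.867% in the Nur77 line, and none of them was among the 6 of the full lists. The GFP losses came to 18 without GFP LPS replicate 3, against 4.8% of all regions, and to 10 and 11 without GFP untreated replicate 1 or 3, against 2.51% and 1.6%. The gains came to 6 without GFP LPS replicate 1, against 5.21%, and to 1 without GFP untreated replicate 3, against 2.72%. The Nur77 losses with LPS came to 10 without Nur77 LPS replicate 1, against 1.16%. The gains came to 3 without Nur77 LPS replicate 3, against 2.76%, and to 2 without Nur77 LPS replicate 1 or 2 or Nur77 untreated replicate 1 or 3, against 2.21% to 3.69%. Losses in untreated Nur77 cells came to 18 without Nur77 untreated replicate 3 and to 15 without GFP untreated replicate 3, against 5.54% and 4.41%, and gains to 2 without Nur77 untreated replicate 1 or 2, against 0.441% and 1.57%. After LPS, losses in Nur77 came to 10 without GFP LPS replicate 1, 6 without Nur77 LPS replicate 1 and 5 without GFP LPS replicate 2, against 6.72%, 3.78% and 3.88%. Gains came to 1 without Nur77 LPS replicate 3 and 2 without GFP LPS replicate 3, against 0.583% and 1.82%.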

How the data were processed

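ATAC-seq peak lists of 12 libraries were analysed, 3 in each of 4 groups. Nuclei were tagmented with the transposase (45 min, 37 °C) and libraries selected for fragments shorter than 700 bp, per the labels. The submitters' processing notes name mm10, cutadapt 2.6 and DiffBind 3.0.15. Which aligner and which peak caller were used is not given in the sources used here. The deposited lists give, for each peak, the authors' score, a fold over the local background (a ratio) and −log10 p-values and q-values, all the authors' own and used to rank peaks within a list. The fold was (reads + 1) divided by (background height + 1) to within 0.1 reads, from which summit reads and background height were recovered.

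Peaks were merged over the 12 lists into 100374 regions, of which 76042 were in at least 2 lists. A library called a region that a peak of it overlapped. Calls were compared as 3 of 3 against 0 of 3, and over 12 libraries by a two-sided Fisher's exact test. Within-list ranks of −log10 q were turned into normal scores and fitted with limma 3.58.1 (group means over 12 libraries) with Benjamini-Hochberg adjustment over 26378 regions. The fit was tested on simulated data. Python 3.11.15, pandas 2.3.3, numpy 2.4.6, scipy 1.17.1, matplotlib 3.10.9 and R 4.3.3 were used. The gene table and promoter windows came from RefSeq.

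Named regions were each gene's strongest region, every member region gained or lost, and up to 10 member regions per rank contrast past an adjusted p of 0.05. Members, lists and the other lysosome genes were chosen with earlier results of these data known. Alternatives were lists of equal length, −log10 q of at least 5, at least 50% of a region covered, background height as covariate, centring by chromosome, regions called in at least 9 libraries, ranking by fold, a replicate block and leaving out each library.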

Additional observations from a re-analysis of the deposited data

How the results depend on the processing

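Calls moved most. In lists of equal length (36184 peaks), GFP LPS gained 1 member region, Nur77 LPS 2, Nur77 untreated gained 2 and lost 3 against GFP, and Nur77 LPS gained 3 and lost 0 against GFP LPS. In the same order, the shares over all regions were 2.19%, 1.65%, 0.909%, 1.43%, 1.00% and 1.44%. Fisher's exact test then passed 1 region called less often with LPS, at Laptm5 (chr4:130901958-130903068, adjusted p = 0.0351), as did 0.913% of the 10405 regions tested. The full lists called that region in 5 LPS and 6 untreated libraries. With −log10 q of at least 5, Nur77 LPS gained 2 and lost 2, and Nur77 untreated gained 0, against 1.85%, 0.383% and 0.263% of all regions. With at least 50% of a region covered, an alternative chosen after seeing the data, gains were 1 (GFP LPS), 0 (Nur77 untreated) and 1 (Nur77 after LPS), and losses in Nur77 after LPS 0. Over all regions these were 2.06%, 0.477%, 0.333% and 2.07%. In the rank fit, 1 region was higher in untreated Nur77 cells with background height as covariate, 3 were higher after LPS when centred by chromosome, and 1 was lower after LPS among regions called in 9 or more libraries. Ranking by fold changed 0 of 35 named calls, and the other fits lost 4 (covariate), 4 (chromosome) and 12 (9 or more libraries).

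For the covered share, undivided lengths gave 6 (GFP) and 8 (Nur77) members lower with LPS, and 2 (untreated) and 0 (after LPS) above in Nur77. Lists of equal length gave 2 above with LPS in the Nur77 line, and 4 above and 3 below in untreated Nur77. The gene span alone gave 8 below with LPS in the Nur77 line, 4 above and 2 below in untreated Nur77 and 2 above after LPS.

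Leaving out 1 library gave 0 to 6 gained and 6 to 18 lost with LPS in the GFP line, and 1 to 3 and 6 to 10 in the Nur77 line. Between lines it gave 1 to 2 gained and 9 to 18 lost untreated, and 0 to 2 and 3 to 10 after LPS. In the rank fit, 0 to 2 were higher and 8 to 13 lower with LPS in the GFP line, 0 to 1 and 7 to 13 in the Nur77 line, 1 to 4 and 0 to 0 between lines untreated, 2 to 6 and 0 to 1 after LPS, and 0 to 0 differed in response. Covered shares gave 0 to 1 above and 16 to 18 below with LPS in the GFP line, 0 to 1 and 15 to 17 in the Nur77 line, 7 to 10 and 6 to 8 between lines untreated, and 5 to 10 and 3 to 5 after LPS. Separation with 1 library fewer is met more easily by any gene or region. The rank-fit and covered-share ranges stand here without shares over all regions or genes, and are descriptions only.

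Deviations of same-numbered libraries correlated at −0.16 to 0.14, over 0.1 in 2 of 18 pairs. Differently numbered ones correlated at −0.15 to 0.22, over 0.1 in 3 of 36 pairs. With 3 libraries per group, this cannot decide whether a replicate number marks a shared culture or day. With the replicate block, 2 regions were higher and 12 lower with LPS in the GFP line, 1 and 9 in the Nur77 line, 3 and 0 between lines untreated, 4 and 0 after LPS, and 0 and 0 differed in response, and 4 of 35 named calls were lost. The causes of these shifts were not tested. Peak lists hold no reads outside peaks, so a region without a call has no level.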

Other observations

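A further 82 lysosome genes outside the 35 were looked up, 77 of them off chromosome 12 with 433 regions, 201 called in all 12 libraries. In the limma rank fit 20 of these regions were higher and 16 lower after LPS in the GFP line, against 9.57% and 6.99% of all regions. In the Nur77 line 11 were higher and 18 lower, against 7.58% and 4.92%. The counts of the GFP line are near the shares over all regions. Slc11a1, the gene of the phagosomal metal transporter NRAMP1, had a region inside the gene (chr1:74381148-74382431) that rose from the percentile 22.8 ± 4.7 to 66.0 ± 3.9 (SD, n = 3) in the GFP line and from 49.0 ± 2.2 to 74.6 ± 1.3 in the Nur77 line. Scpep1, a serine carboxypeptidase gene, had one (chr11:88939206-88940920) that rose from 26.6 ± 3.6 to 67.4 ± 4.1 and from 40.4 ± 6.1 to 67.2 ± 6.2. Tpcn1, the gene of an endolysosomal ion channel, had one (chr5:120561958-120564225) that fell from 68.6 ± 5.3 to 22.5 ± 1.9 and from 85.7 ± 6.6 to 49.6 ± 1.8. All 3 passed in both lines.

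Between the lines, 6 of the 201 regions were higher and 5 lower in untreated Nur77 cells, and 4 higher and 11 lower after LPS, against 2.49% and 4.19%, and 2.49% and 4.73%, of all regions. All regions include those of chromosome 12, which the 201 leave out. A region near the 10 kb limit around Atp6v1c1, which encodes a V-ATPase subunit, was lower in Nur77 in both states, by 1.10 (adjusted p = 0.0024, limma) and 0.83 (adjusted p = 0.011). The 5 further genes on chromosome 12, Atp6v1d, Galc, Laptm4a, Lgmn and Npc2, had 16 regions called in all 12 libraries. Of these 7 were lower in untreated Nur77 cells and 3 after LPS, with 0 higher, and their median differences were −0.52 and −0.41. All shared regions of chromosome 12 had medians of −0.43 and −0.47, so the values of these 5 genes cannot be told apart from those of their chromosome.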
